A study of Homo sapiens with 2 samples.

Results

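The genes described here encode the NF-E2 p45 protein, its relatives NRF1 and NRF2, the 3 small MAF proteins and the paired repressors BACH1 and BACH2. The members were NFE2, NFE2L1, NFE2L2, MAFF, MAFG, MAFK, BACH1 and BACH2, chosen by name and found through the gene symbol and start-site distance given for each probe. All 8 were on the arrays, among 17280 genes named there. Chromatin came from untreated Meg-01, an established human megakaryocytic leukemia line. DNA brought down with an antibody to the C-terminus of GATA1 was labelled with Cy5, and DNA brought down with normal goat IgG from the same chromatin was labelled with Cy3. Both were hybridized together to a promoter set of 2 arrays, chIP1 and chIP2. The arrays carried different probes, with 3 members on chIP1 and 5 on chIP2, so each probe was read once. There was therefore no biological replicate, no dye swap and no test between conditions, and every value below describes 1 immunoprecipitation.

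NF-E2 is a dimer of the p45 protein, encoded by NFE2, with a small MAF protein. It drives late megakaryocyte genes and platelet release, and it binds the globin locus in red cells. NRF1 and NRF2 pair with the same small MAFs to switch on stress and proteasome genes, while BACH1 and BACH2 pair with them to repress such targets. The small MAFs bind DNA but lack an activation domain, so what they do depends on their partner. GATA1, the protein brought down here, is the zinc finger factor that directs megakaryocyte and red cell genes and binds DNA at the letters GATA.

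The measure was the log2 ratio of IP over IgG intensity, set to a median of 0 on each array. A value of 1 is a 2-fold higher IP signal relative to the median probe of that array, and not an absolute amount of GATA1. Neighbouring probes were averaged in windows of 3, and a window was called enriched at 1 or more and depleted at -1 or less. Windows overlap and a DNA fragment can cover several probes, so windows are not independent. The ± after a window is the error that the scanner's own error model gives for the mean of its 3 probes, and it covers neither the immunoprecipitation nor the cells. The median single-probe error was 0.22 on both arrays, against an SD over all kept probes of 0.974 and 0.970. Median raw signals were 543 and 544 for IP and 412 and 439.8 for IgG, not far above negative controls at 342 and 340.3 for IP and 303 on both arrays for IgG.

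The members held 303 probes, of which 300 were kept, and they formed 265 windows over 7 genes. MAFG had too few probes for a window. Of those 7 members, 5 had an enriched window, namely NFE2, NFE2L1, NFE2L2, MAFK and BACH2. Over all genes with a window the share was 57.1%. A depleted window lay at 3 of the 7, namely NFE2L1, MAFF and BACH2, against 52.9% of all genes. The members had more windows than most genes, 29 to 61 where the median gene had 23. Among the 5296 genes with 29 to 61 windows, 73.1% had an enriched and 70.5% a depleted window, so the enriched count was near that of genes with as many windows and the depleted count was below it, over only 7 genes. Counted by window, 23 of the 265 were enriched, or 8.68%, where the arrays as a whole had 7.62%. At the threshold used, 5 of the 265 were depleted, or 1.89%, where the arrays had 9.65%. Other windows of NFE2, MAFF, BACH1 and BACH2 lay just inside that threshold, as low as -0.999, so the depleted count hangs on it. NFE2 and MAFK supplied 9 and 8 of the 23 enriched windows.

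NFE2 had the highest 3-probe window and the highest mean of the 7 members with windows, although the highest single probe, 2.43, was in MAFK. Its 47 probes ran from 9210 bp upstream to 2989 bp downstream of its start (chromosome 12, 52972794 to 52985050 in the coordinates of the files), and 46 were kept. The mean of those 46 was 0.58 ± 0.83 (SD over probes), higher than in 96.7% of genes with a window on chIP2. Of the 46 probes, 33 lay above 0 and 15 at 1 or more. The 9 enriched windows fell into 4 separate stretches, and no window was depleted.

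The stretch at the NFE2 start was read by 5 probes. They measured 1.57 at 177 bp downstream, 1.08 at 21 bp downstream, 2.00 at 83 bp upstream, 1.72 at 293 bp upstream and 1.31 at 832 bp upstream. The probe at 83 bp upstream had an IP intensity of 16123 and an IgG intensity of 4020.3. The flanking probes were low on both sides, at -0.19 for 441 bp downstream and -0.47 for 1242 bp upstream. The highest of the 3 windows was 1.68 ± 0.15, a call that did not rest on any single probe since the lowest of the 5 was still above 1. Within 500 bp of the start the 5 probes of NFE2 averaged 1.23 ± 0.87, including the negative one. This was higher than in 96.7% of the 15541 genes with 3 or more probes there, whose median was 0.30.

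The farthest upstream stretch of NFE2 held its highest windows, at 1.20 ± 0.13, 1.55 ± 0.15 and 1.77 ± 0.15, centred 8456, 8760 and 8992 bp upstream. Its kept probes measured 1.14, 1.20, 1.27, 2.16 and 1.86, so each of the 5 was above 2-fold. A further probe of the stretch, 8585 bp upstream, read 1.26 but was left out by its scanner flag. The outermost probe of the tiled region, 9210 bp upstream, was one of the 2 highest, so the outer edge of this stretch was not reached. Between these ends, windows of 1.25 ± 0.14 and 1.03 ± 0.13 were centred 3563 and 3662 bp upstream of NFE2, and 1 window of 1.20 ± 0.14 was centred 6600 bp upstream.

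A trough of NFE2 separated the inner stretches. Probes 4443 and 4621 bp upstream measured -1.12 and -1.21, and the lowest window was -0.99 ± 0.13, just inside the threshold. The files give NFE2 a second start from a full-length cDNA, 5247 bp upstream of the RefSeq start. The 6 kept probes within 500 bp of that start averaged 0.28 ± 0.46 and ranged from -0.64 to 0.57, so the NFE2 signal there was lower than at the RefSeq start. Measured from the cDNA start, the highest window lies 3745 bp upstream.

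**Figure D1:**
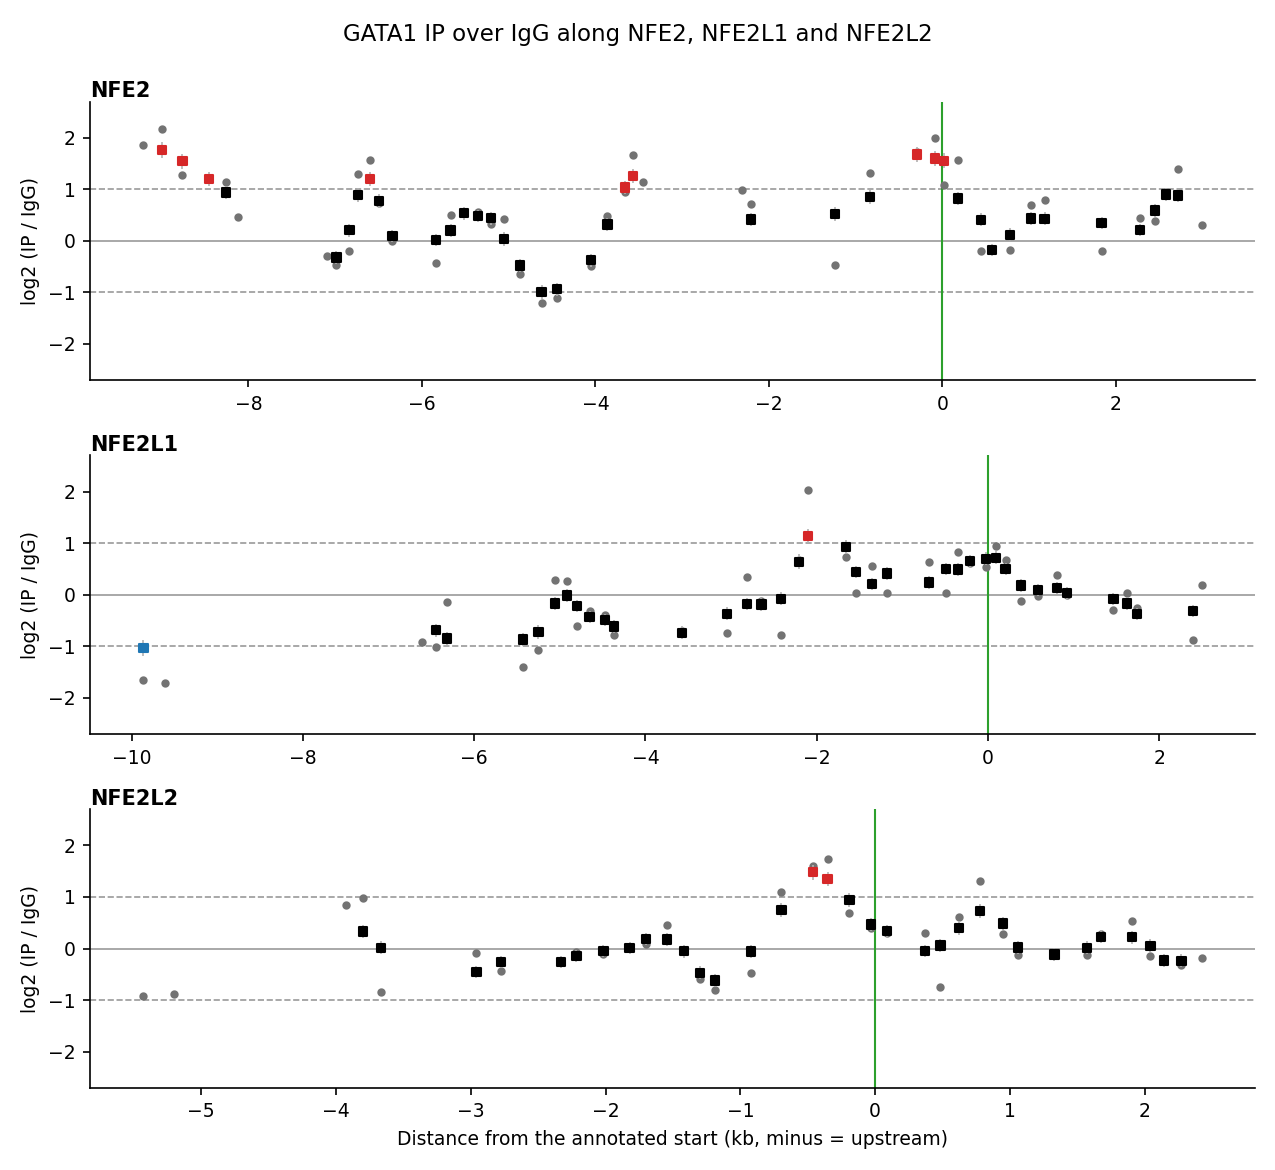
Log2 ratio of IP over IgG (y axis) against distance from the annotated start in kb (x axis, green line at the start) for NFE2, NFE2L1 and NFE2L2. Grey points are single probes, squares are 3-probe windows with the scanner error as bars (red enriched, blue depleted), and dashed lines mark 1 and -1. NFE2 shows 4 red stretches and NFE2L2 a single one just upstream of its start. NFE2L1 shows a single red square, at 1.14, within a run of probes above 0 that reaches past its start.

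NFE2L2 encodes NRF2, which is held in check by KEAP1 until oxidative stress frees it. Its single enriched stretch lay just upstream of the start, in 2 windows of 1.48 ± 0.14 and 1.35 ± 0.14 centred 459 and 353 bp upstream (chromosome 2, 177955093 to 177955642 in the files' coordinates). The 4 probes behind them, from the inside outward, measured 0.69 at 191 bp, 1.74 at 353 bp, 1.60 at 459 bp and 1.09 at 696 bp upstream. The signal fell to -0.46 by 923 bp upstream and to 0.40 by 32 bp upstream, so the rise was narrow. The window centred 191 bp upstream of NFE2L2, at 0.95, fell just short of the threshold. The remaining NFE2L2 windows ranged down to -0.62 and none was depleted. The mean over its 37 probes was 0.11 ± 0.67, near the median of 0.01 over all genes.

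The 250 bases upstream of the outermost RefSeq start of NFE2L2 are shown as its nearest upstream sequence. Its enriched windows were centred 353 and 459 bp upstream of the array's start. Even if the 2 starts coincide, those centres lie outside the 250 bases. RefSeq positions are in GRCh38.p14, whereas the build of the probe positions was not given in the sources used here, so the 2 sets of coordinates are not interchangeable and the starts may differ. Capitals would mark, on either strand, the GATA letters (AGATAA and its variant ending in G, or TGATAA and its variant ending in G), the antioxidant response letters TGACNNNGC, the extended NF-E2 core or the AP-1 core TGANTCA, which the NF-E2 core contains. None occurs in these 250 bases, which are 74.8% G and C. This does not describe the sequence under the enriched windows.
NFE2L2 upstream, chr2:177264728-177264977, minus strand: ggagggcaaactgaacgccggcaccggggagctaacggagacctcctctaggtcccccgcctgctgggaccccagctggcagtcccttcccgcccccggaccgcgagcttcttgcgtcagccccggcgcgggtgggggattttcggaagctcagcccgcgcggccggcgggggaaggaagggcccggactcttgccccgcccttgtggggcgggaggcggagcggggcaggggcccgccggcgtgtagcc

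NFE2L1 encodes NRF1, an activator of proteasome genes. Its only enriched window, at 1.14 ± 0.14, was centred 2104 bp upstream and rested on 1 high probe. The 3 probes measured 0.67, 2.03 and 0.73. A run of 13 consecutive NFE2L1 probes above 0 reached from 2209 bp upstream to 205 bp downstream, longer than in 95.0% of genes on chIP2. The run began with the 3 probes of that enriched window, and its lowest probe read 0.03. The 7 probes within 500 bp of the start averaged 0.50 ± 0.40 and ranged from -0.12 to 0.94, against the all-gene median of 0.30. Farther upstream NFE2L1 turned low, and its 20 probes over 2000 bp upstream averaged -0.44 ± 0.88.

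The upstream region of NFE2L1 is shared with COPZ2, a coatomer subunit gene read from the opposite strand, and 25 of the 40 NFE2L1 probes are annotated to both. The depleted window of NFE2L1, at -1.03 ± 0.15, was centred 9864 bp upstream of NFE2L1, close to the start of COPZ2. Its probes measured 0.27, -1.66 and -1.71, and the first belongs to COPZ2 alone. With windows limited to probes annotated to NFE2L1, the lowest value was -0.87 and the depleted call was lost. COPZ2 reached 3.09 ± 0.21, in 3 probes between 2.37 and 3.60 centred 1005 bp inside its own gene, outside the probes of NFE2L1.

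MAFK, the small MAF first purified as the partner of NF-E2 p45, had the most probes of the members, 64 from 3715 bp upstream to 10946 bp downstream of its start (chromosome 7, 1339864 to 1354576). Counted from its RefSeq start, all 8 of its enriched windows were inside the gene and none was near that start. They formed 3 stretches, with highest windows of 1.39 ± 0.15 at 2277 bp, 1.32 ± 0.14 at 6736 bp and 1.25 ± 0.15 at 8486 bp downstream. The first was carried by probes of 2.24 and 1.41, the second by 1.82 and 1.37, and the third by 1 probe of 2.43 between neighbours of 0.77 and 0.56. The probe of 2.43 was dim, brighter than only 13.4% of kept probes on chIP1, with intensities of 622 for IP and 116 for IgG. The window at 2079 bp, at 1.01, was just past the threshold, and the one at 5345 bp, at 0.97, just short of it. At the start MAFK had only 2 probes within 500 bp, which read 0.04 and -0.003. Of all 64 MAFK probes 46 lay above 0, their mean was 0.35 ± 0.68, and 86.4% of genes on chIP1 had a lower mean. No window of MAFK fell below -0.41.

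MAFF, a small MAF that is quickly induced by cytokines and stress, had no enriched window and its highest was 0.71 ± 0.14. Its depleted stretch lay upstream, with windows of -1.12 ± 0.14, -1.58 ± 0.15 and -1.33 ± 0.14 centred 2664, 2507 and 2096 bp from the first start. The probes there measured -0.47, -1.08, -1.80, -1.85 and -0.33. The lowest MAFF window was deeper than those of most genes on chIP2, of which 21.3% had a lower one. Beside this trough MAFF had 2 high probes, at 1.18 and 1.41, which were 3314 and 3151 bp upstream and at the edge of the tiled region. The files give MAFF a second start 11544 bp downstream of the first. The window centred 446 bp inside that start, at -0.994, fell just short of the depleted call. Within 500 bp of either start, 7 probes of MAFF averaged -0.26 ± 0.80, and 14.0% of genes had a lower mean there. This mean pooled unlike starts. Probes at the first start read 0.16, 0.32, 0.04 and 0.28, and those at the second 0.17, -1.72 and -1.07. The 0.32 probe, 12 bp upstream of the first start, was nearly without signal, at intensities of 24 for IP and 19 for IgG.

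The upstream bases of the outermost MAFF start are shown because they hold the one match among the members to the antioxidant response letters, in capitals, beginning 122 bases before the RefSeq start on the opposite strand. Over all 35116 upstream windows of RefSeq, 10.9% hold these letters.
MAFF upstream, chr22:38201744-38201993, plus strand: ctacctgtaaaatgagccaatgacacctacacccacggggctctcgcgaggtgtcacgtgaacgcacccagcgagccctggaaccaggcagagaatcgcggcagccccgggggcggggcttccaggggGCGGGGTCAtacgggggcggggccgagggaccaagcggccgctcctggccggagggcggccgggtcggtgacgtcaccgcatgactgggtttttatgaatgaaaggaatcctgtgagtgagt

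MAFG, the remaining small MAF, had only 2 probes. They read 0.64 at 1464 bp upstream of one annotated start and -0.42 at 33 bp upstream of the other. The second was dim, brighter than only 6.83% of kept probes on its array, with intensities of 127 for IP and 170 for IgG. MAFG was therefore hardly covered, and its values bear on those 2 positions only.

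**Figure D2:**
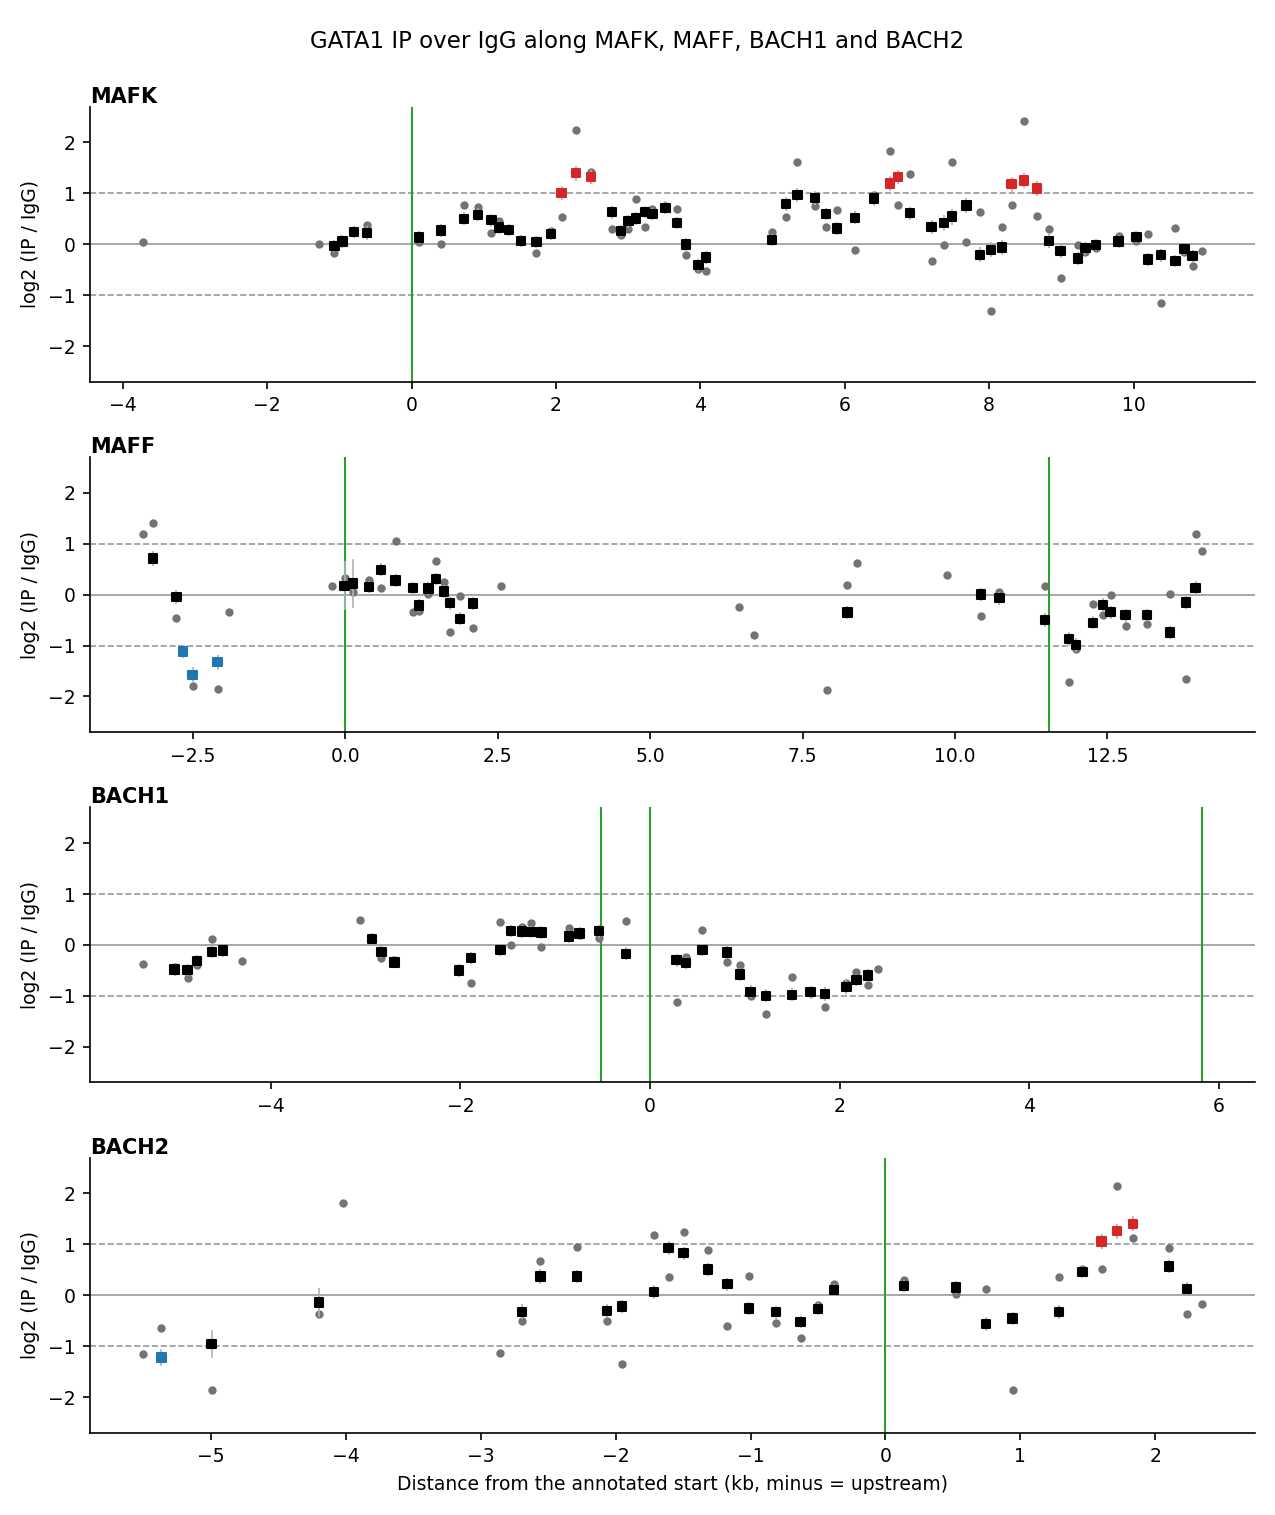
Log2 ratio of IP over IgG (y axis) against distance in kb (x axis) for MAFK, MAFF, BACH1 and BACH2, with every annotated RefSeq start as a green line. Grey points are probes and squares are 3-probe windows with the scanner error (red enriched, blue depleted). MAFK shows 3 red stretches inside the gene, MAFF a blue one upstream, BACH1 a trough that stops at -0.999, and BACH2 a red stretch about 1.8 kb inside the gene.

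BACH1 encodes the heme-binding repressor of HMOX1 and of globin genes. Among the 7 members with windows it had the lowest high point and the lowest mean, -0.29. All 32 windows lay between -0.999 and 0.27, so none was enriched and none depleted as processed here. The lowest reached -1.03 both under loess and in windows of 5 probes, just past the threshold. Its highest window, 0.27 ± 0.12, was below those of all but 5.41% of genes on chIP2. The files give BACH1 a pair of nearby starts, 517 bp apart, and an inner one 5823 bp farther on. Downstream of the second start, 11 consecutive probes from 810 to 2403 bp lay below 0, a run longer than in 91.4% of genes on chIP2. The 12 BACH1 probes over 500 bp downstream averaged -0.68 ± 0.44, where the median gene had -0.04 and 9.82% of 15853 genes were lower. The lowest window, centred 1224 bp downstream, came from probes of -1.01, -1.36 and -0.63 of above-median intensity. Around the first 2 starts the mean was close to 0, at -0.04 ± 0.58 over 6 probes. These ranged from -1.13 to 0.46, and 23.7% of genes had a lower mean there.

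Upstream bases of 2 BACH1 starts are shown to set the outermost start, which is rich in G and C, beside the innermost one, which is not. The outermost holds 1 AP-1 core (TGAGTCA, in capitals), beginning 48 bases before the start, and no GATA letters. The innermost holds 2 GATA matches on the opposite strand (TTATCT and TTATCA), beginning 196 and 144 bases before that start. The probes of BACH1 on the array ended 2403 bp past its second start, so no probe lay beside that innermost start and the ratio there was not measured.
BACH1 outermost, chr21:29298672-29298921, plus strand: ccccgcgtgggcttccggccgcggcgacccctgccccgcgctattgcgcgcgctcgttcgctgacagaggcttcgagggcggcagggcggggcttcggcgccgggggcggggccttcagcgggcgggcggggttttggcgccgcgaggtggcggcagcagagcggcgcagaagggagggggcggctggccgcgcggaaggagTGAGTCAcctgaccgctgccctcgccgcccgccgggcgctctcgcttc
BACH1 innermost, chr21:29304954-29305203, plus strand: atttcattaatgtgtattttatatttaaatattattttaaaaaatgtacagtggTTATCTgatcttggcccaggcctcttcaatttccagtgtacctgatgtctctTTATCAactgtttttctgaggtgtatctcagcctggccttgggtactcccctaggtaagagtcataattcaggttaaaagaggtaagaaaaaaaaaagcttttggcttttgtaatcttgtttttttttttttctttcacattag

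RefSeq upstream windows were at hand for 6 of the 8 members, 11 windows in all, with NFE2 and MAFK not analysed here. Only the innermost BACH1 window held GATA letters, 1 of 11, where 22.3% of all RefSeq windows of this length did. The AP-1 core occurred in 6.57% of all windows and the extended NF-E2 core in 0.131%. None of the 11 held the extended NF-E2 core. G and C made up 32.4% of the innermost BACH1 window and a median of 73.2% over the 11. A match of letters is a description and not evidence of binding.

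BACH2 encodes the B cell relative of BACH1. Its enriched stretch lay inside the gene, in windows of 1.40 ± 0.15, 1.26 ± 0.14 and 1.06 ± 0.15 centred 1837, 1715 and 1602 bp downstream of the start. The probes read 0.93, 1.13, 2.14, 0.51 and 0.52, so 1 probe was well above the rest. The highest of them had intensities of 798 for IP and 181 for IgG, brighter than 21.1% of kept probes on chIP1. A depleted window of -1.22 ± 0.16, centred 5366 bp upstream of BACH2, was made of dim probes that averaged the 15.1th percentile of intensity. The lowest BACH2 window was -0.79 with normexp and -0.44 in windows of 5 probes, and the depleted call was lost in both. 2 nearby BACH2 probes, 4332 and 4432 bp upstream, were too dim in both channels and were left out. The start itself was near 0, with 3 probes at -0.20, 0.23 and 0.30.

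**Figure D3:**
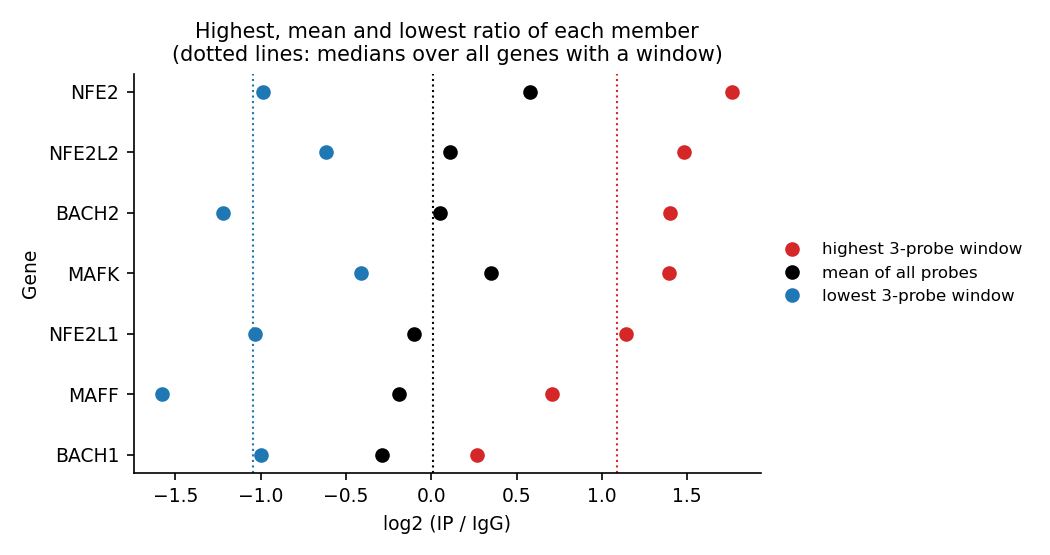
Highest 3-probe window (red), mean of all kept probes (black) and lowest 3-probe window (blue) of the 7 members with windows, as log2 ratios of IP over IgG (x axis), with genes ordered by their highest window (y axis). Dotted lines are the medians over all genes with a window, at 1.09, 0.01 and -1.05, and NFE2 lies to the right of the red and black lines while BACH1 lies to the left of both.

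Ordered by highest window, the members ran NFE2 at 1.77, NFE2L2 at 1.48, BACH2 at 1.40, MAFK at 1.39, NFE2L1 at 1.14, MAFF at 0.71 and BACH1 at 0.27. Neighbours in this order were separated by 0.29, 0.08, 0.01, 0.25, 0.43 and 0.44. By the scanner error alone, the 95% half-widths of these differences were 0.41, 0.40, 0.41, 0.39, 0.38 and 0.36, which makes no allowance for picking the highest of many windows. NFE2L1 and MAFF therefore differed beyond that error, as did MAFF and BACH1, whereas the other neighbours did not. NFE2L2, BACH2 and MAFK could not be ordered among themselves. The median of the members' highest windows was 1.39, beside 1.09 over all genes and 1.30 over the genes with 29 to 61 windows. The median of their lowest windows was -0.999, beside -1.05 and -1.31, and the median of their means over all probes was 0.05, beside 0.01.

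The position of the enrichment differed from member to member. Counted from the RefSeq starts of the members alone, 5 of the 23 enriched windows were centred within 500 bp of a start, 7 farther upstream and 11 farther inside a gene. The 5 at a start belonged to NFE2 and NFE2L2, the 7 upstream to NFE2 and NFE2L1, and the 11 inside to MAFK and BACH2. Probe coverage also differed between members, and the share of all windows in each zone was not computed. MAFK had 56 of its 64 probes over 500 bp downstream of its start and only 2 within 500 bp. NFE2 had 29 of its 46 kept probes over 2000 bp upstream. Over all genes the median ratio was 0.30 within 500 bp of the start, -0.01 from 500 to 2000 bp upstream and -0.16 farther upstream. The mean of NFE2 stayed above 0 far upstream, where its 29 probes over 2000 bp upstream averaged 0.52 ± 0.87. They ranged from -1.21 to 2.16, and 91.3% of 12020 genes had a lower mean there. The arrays covered promoters and nearby sequence only, so distal elements of the members were not read.

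The partners and relatives of the family were read in the same way. These were KEAP1, CUL3 and RBX1, which mark NRF2 for destruction, BTRC and GSK3B, which do so by another route, SQSTM1, NFE2L3 and the large MAF genes. Of these 11, 7 had an enriched and 4 a depleted window, beside 57.1% and 52.9% of all genes. The list's median highest window was 1.16, over a median of 31 windows per gene. BTRC was highest at 1.76 ± 0.15, centred 15 bp from its start. MAF had both a high window at its start, 1.58 ± 0.19, and the lowest window of the list, -2.02 ± 0.17, which was 3433 bp upstream. MAF's high window was uneven, with probes from 0.73 to 2.88, and it fell to 0.54 under another background correction. KEAP1 stayed within 0.47 and -0.33 over 16 windows. NFE2L3, which encodes NRF3, had the lowest high point of the list, 0.29, and a lowest window of -0.99.

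Among 12 platelet and red cell genes tied to NF-E2, 5 had an enriched and 5 a depleted window, beside 57.1% and 52.9% of all genes. The list's median highest window was 0.91, over a median of 18 windows per gene. TBXAS1, the thromboxane synthase gene of platelets, reached 1.71 ± 0.15 at 1180 bp inside the gene and had 8 enriched windows. ALAS2, the first enzyme of heme synthesis in red cells, reached 1.69 ± 0.21 at 6490 bp inside and fell to -1.68 ± 0.17 at 2174 bp inside. In windows of 5 probes both ALAS2 calls were lost, at 0.82 and -0.87. TUBB1, the beta tubulin of platelets, reached 1.23 ± 0.14 at 4690 bp upstream, in a promoter shared with a divergent gene. HSD3B1, a steroid dehydrogenase gene, had no window above -0.45 and a lowest of -1.50.

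Of the 23 stress genes of NRF2 and BACH1, 21 had a window. An enriched one was held by 8 and a depleted one by 6, beside 57.1% and 52.9% of all genes. The list's median highest window was 0.91, as in the list before, over a median of 17 windows. The highest belonged to OSGIN1, listed on the array under its older symbol OKL38, at 2.60 ± 0.20, from probes of 1.95 to 3.53 centred 1283 bp inside the gene. OSGIN1 fell to 0.986, short of the threshold, under normexp background correction. HMOX1, the heme oxygenase gene that BACH1 represses, reached only 0.68 ± 0.13 and had no window past either threshold. NQO1, a quinone reductase, peaked at 0.91 ± 0.13 near its start and had 3 depleted windows, the lowest at -1.21 ± 0.14, which became -0.84 with normexp. AKR1B10, an aldo-keto reductase with 5 windows, stayed between -0.38 and -1.94. ABCC1 and EPHX1 could not be matched by symbol and were not analysed here.

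Of the 5 proteasome genes that NRF1 controls, 4 had an enriched window and 2 a depleted one, beside 57.1% and 52.9% of all genes. PSMD12 was highest at 1.43 ± 0.14, 8413 bp upstream in a promoter shared with a divergent gene, and PSMA7 was next at 1.36 ± 0.15. PSMA7 lost its call with normexp (0.88) and in windows of 5 probes (0.89). PSMB6 held both a window of 1.31 ± 0.14 at 175 bp inside and the lowest of the list, -1.96 ± 0.16, at 1736 bp inside. The high window of PSMB6 fell to 0.92 in windows of 5 probes. PSMC4 peaked lowest as processed here, at 0.93 ± 0.13, but with normexp it rose to 1.12, past the threshold and above PSMA7. Over the 49 genes of the 4 lists with a window, 24 were enriched, or 49.0%, and 17 depleted, or 34.7%. As processed here, both shares lay below the all-gene shares of 57.1% and 52.9%, and these genes had a median of 18 windows against 23. With normexp, 22 pathway genes were enriched, a larger share than the 33.1% of all genes. In that setting 8 pathway genes were depleted, beside 23.9% of all genes.

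**Figure D4:**
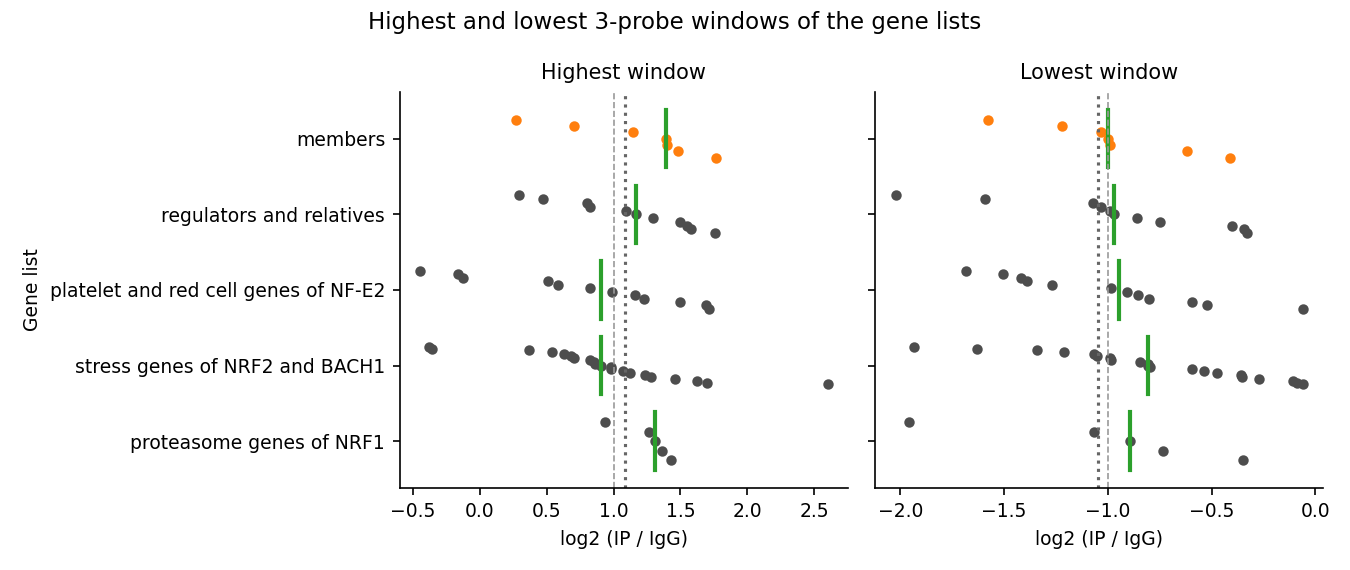
Highest (left) and lowest (right) 3-probe window of each gene as the log2 ratio of IP over IgG (x axis), for the 7 members (orange) and the 4 pathway lists (grey, y axis), with green bars at the list medians. The dotted line is the median over all genes and the dashed line the threshold, and the members' median highest window, 1.39, lies to the right of both. OSGIN1 has the highest point, at 2.60, but with normexp background correction it falls to 0.986 and the members' median to 0.96.

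The highest window held its call best at NFE2 and NFE2L2. Over 9 other ways of processing, described after the report, NFE2 ranged from 1.53 to 2.16 and NFE2L2 from 1.11 to 1.74. MAFK dropped to 0.97 in windows of 5 probes, BACH2 to 0.80 with normexp background correction, and NFE2L1 to 0.80 and 0.96 in these 2 settings. MAFF passed 1 only as a single probe, at 1.41, and BACH1 stayed at or below 0.49.

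**Figure D5:**
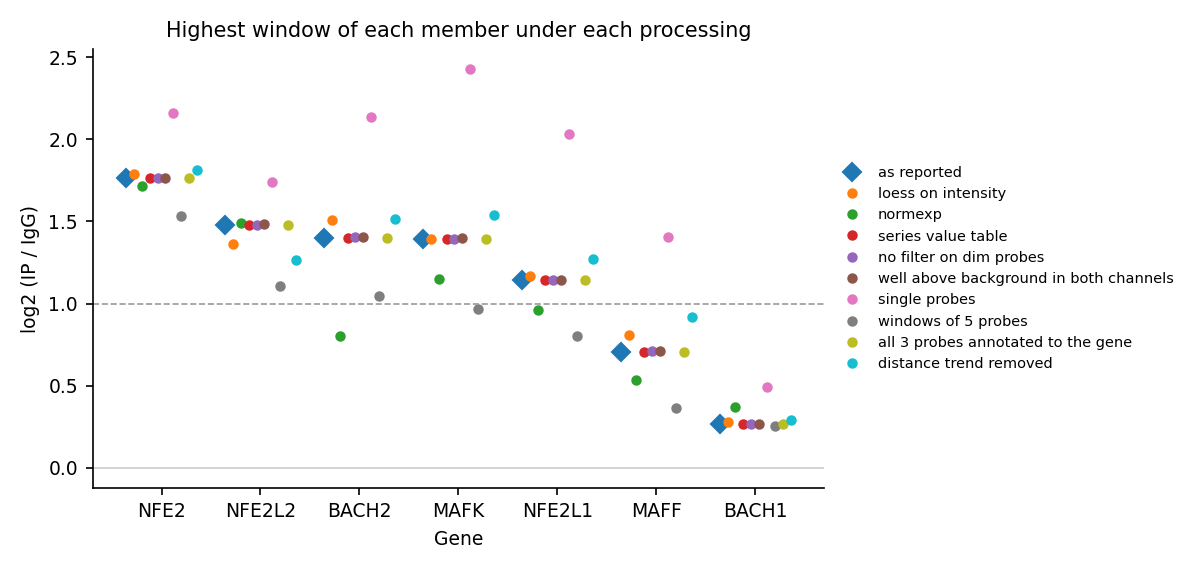
Highest window of each member (x axis) as the log2 ratio of IP over IgG (y axis) under the reported processing (blue diamonds) and 9 alternatives (coloured points), with the threshold of 1 dashed. NFE2 and NFE2L2 stay above the line in every setting, BACH1 stays below it, and the others cross it in at least 1 setting.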

How the data were processed

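Chromatin of formaldehyde-fixed Meg-01 cells was sonicated, precipitated, linker-ligated and amplified, and hybridized to 2 Agilent promoter arrays. Per the file headers, the deposited intensity values came from Agilent Feature Extraction 9.5.3.1, which had subtracted background and normalized the dyes. The deposited log10 ratio and its log10 error were used as an alternative and for the errors, and the scanner flags (other columns) were used as filters. The study's own peak calls, made in Chip Analytics, were not used here, and the genome build of the probe positions was not given in the sources used here.

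The log2 ratio of processed red (IP) over green (IgG) intensity was taken for genomic probes, without those flagged as non-uniform and those well above background in neither channel, and centred on each array's median. This kept 237004 of 237210 and 236864 of 237201 probes. Saturated probes stayed in. Windows of 3 neighbouring probes, no more than 1000 bp apart, gave 415403 windows over 17054 genes, and a gene took every window that held 1 of its probes. The 2-fold threshold was set without a test. Errors are the scanner's log ratio errors combined over 3 probes. Only 1 hybridization per probe limits the precision, and amplification and antibody efficiency were not measured. Alternatives were loess (span 0.3), normexp (offset 50, limma 3.58.1 in R 4.3.3), the deposited value table, other dim-probe filters, windows of 1 or 5 probes, thresholds of 1.5-fold, 3-fold or 4 robust SDs, windows with all 3 probes of the gene, and removal of the trend with distance in 500 bp steps to 6000 bp. Python 3.11.15, pandas 2.3.3 and statsmodels 0.14.6 were used, and the window code was tested on simulated data.

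All 8 members were named, with KEAP1, HMOX1, TUBB1, NQO1 and NFE2L3, any gene sharing a probe with a member, and from each of 4 lists the 2 genes with the highest windows, the one whose highest was lowest and the one with the lowest window. A gene that this rule names is not reported here. Members and lists were chosen with earlier results of these data known, and the runs of probes and the AP-1 core were added after the values were seen. Sequences are from RefSeq.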

Additional observations from a re-analysis of the deposited data

How the results depend on the processing

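No paired analysis was possible because no probe lay on both arrays. The 5 enriched members and the medians of their highest and lowest windows (within 0.25) held under loess, the deposited value table, both dim-probe filters, windows with all 3 probes of the gene and removal of the distance trend. So did the 3 depleted members, except that 2 were left with all 3 probes of the gene and that under loess BACH1 (-1.03) replaced NFE2L1 (-0.94). The median of their means, 0.05, ranged from -0.05 without the dim filter to 0.13 under loess. With normexp, 3 members were enriched and 1 depleted, and the median highest window fell to 0.96. In that setting 22 pathway genes were enriched and 8 depleted, beside 33.1% and 23.9% of all genes. With single probes, 6 members were depleted, the medians of the highest and lowest values were 1.89 and -1.33, and 39 and 35 pathway genes passed (86.1% and 81.1% of all genes). With windows of 5 probes, 3 members were enriched and 2 depleted (MAFF and BACH1), the medians were 0.97 and -0.61, and 14 and 10 pathway genes passed (34.1% and 33.5% of all genes). At 1.5-fold, 6 members were enriched and 6 depleted, and 38 and 35 pathway genes passed (85.0% and 78.4% of all genes). At 3-fold, 1 member (NFE2) was enriched, 0 were depleted, and 6 and 6 pathway genes passed (20.6% and 22.3% of all genes). At 4 robust SDs, a log2 threshold of up to 2.83, no member and no pathway gene passed (0 in each direction, beside 1.51% and 2.11% of all genes). Of 126 highest and lowest windows of members recomputed, 110 kept their call, 10 lost it, 6 gained it and 0 changed sign, and the causes were not tested. The main limits are 1 immunoprecipitation, 1 dye orientation, signals near those of negative controls, and no coverage beyond the promoters. For MAFG with 2 probes, little can be read.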
